A study of Homo sapiens with 4 samples.

Results

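The 10 genes described here encode effectors and outputs of the Hippo pathway. They are the coactivators YAP1 and WWTR1 (the gene for TAZ), the DNA-binding factors TEAD1 and TEAD4, the kinase LATS2, and 5 genes known as transcriptional targets of YAP (CCN1, CCN2, ANKRD1, AMOTL2 and AXL). They were taken as a list of names, by no rule on their values though with earlier results of these data known, and were 10 of the 60564 genes counted. All 10 passed the filter on low counts, which left 22555 genes for testing. The cells were Elf1, a human embryonic stem cell (ESC) line described as naïve, and all libraries came from this 1 line. The 2-D libraries came from cells attached to plastic coated with Matrigel, a basement membrane extract. The line had been kept on mouse embryonic feeder cells, and was moved to feeder-free Matrigel before the scaffolds were made. The 3-D libraries came from cells that were dissociated, enclosed as single cells in a hydrogel of 8-arm polyethylene glycol polymers (PEG-8-SH and PEG-8-Acr) and kept there for 21 days. Both conditions used the same ESC expansion medium, which held FGF2, LIF and inhibitors of GSK3 and MEK, and the cells carried no genetic change that the labels name. Each condition had 2 libraries of bulk RNA. The 3-D cells were also not passaged while in the scaffold. The geometry of the culture, the material around the cells (Matrigel-coated plastic or polymer) and the time without passage therefore cannot be told apart.

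The Hippo pathway is a chain of kinases that links cell contacts, cell shape and tension of the actin cytoskeleton to transcription. The kinases MST1 and MST2 activate LATS1 and LATS2, which phosphorylate YAP and TAZ, and the phosphorylated coactivators are held in the cytoplasm by 14-3-3 proteins or degraded. When the kinases are inactive, YAP and TAZ enter the nucleus and bind TEAD factors on DNA, and stiff or spread culture surfaces are a well-known setting for this. Most of that control acts on the phosphorylation and location of proteins, which RNA counts do not measure. In human pluripotent cells YAP and the TEAD factors take part in the choice between embryonic and trophoblast fates.

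TEAD factors recognise the letters GGAATG, or CATTCC when read on the other strand. The 250 bases before the annotated start of each gene were searched for either form in the RefSeq promoter sequences of the human assembly GRCh38.p14, which held 10 windows for 7 of the 10 genes (none for TEAD1, TEAD4 and CCN1). The windows of 3 targets are printed 5′ to 3′ on the strand of the gene, with each match in capitals, because CCN2 and ANKRD1 held more matches than the other windows and AMOTL2 was the 1 gene of the 10 that passed the test of the culture comparison. The CCN2 window lies at chr6:131951373-131951622 (minus strand), that of ANKRD1 at chr10:90921088-90921337 (minus strand), and the second AMOTL2 window at chr3:134374448-134374697 (minus strand).
CCN2: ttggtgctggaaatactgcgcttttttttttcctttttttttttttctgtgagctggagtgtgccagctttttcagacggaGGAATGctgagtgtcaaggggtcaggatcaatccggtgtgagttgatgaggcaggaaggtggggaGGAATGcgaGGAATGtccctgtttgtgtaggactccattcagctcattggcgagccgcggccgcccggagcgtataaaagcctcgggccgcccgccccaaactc
ANKRD1: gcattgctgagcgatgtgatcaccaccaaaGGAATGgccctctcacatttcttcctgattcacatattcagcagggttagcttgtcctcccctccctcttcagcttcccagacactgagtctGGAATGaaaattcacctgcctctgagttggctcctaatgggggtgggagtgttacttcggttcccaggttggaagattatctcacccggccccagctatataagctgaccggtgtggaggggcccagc
AMOTL2: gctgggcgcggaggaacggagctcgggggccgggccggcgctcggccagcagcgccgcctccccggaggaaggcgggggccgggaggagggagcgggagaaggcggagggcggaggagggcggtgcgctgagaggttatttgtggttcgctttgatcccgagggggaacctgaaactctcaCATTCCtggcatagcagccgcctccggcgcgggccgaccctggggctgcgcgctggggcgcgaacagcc
CCN2 held 3 matches, which began 169, 104 and 95 bases before the start. ANKRD1 held 2, which began 220 and 128 bases before it. One match each was present in the YAP1 window, in the second AMOTL2 window and in the second AXL window, and the first windows of AMOTL2 and AXL, both windows of WWTR1 and the window of LATS2 held 0. Of all 35116 windows of this length, 11.9% held at least 1 match, 0.94% at least 2 and 0.0826% at least 3. A match is a run of letters and not a measured binding site.

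Depth differed between the conditions, with 33833778 and 30114220 counts in 2-D against 21154409 and 18276147 in 3-D. The general pluripotency genes POU5F1, NANOG, SOX2, LIN28A, DPPA4 and TDGF1 were present at over 100 counts-per-million (CPM) in every library. In the main edgeR test 0 of the 6 passed, with 4 of them at an unadjusted p below 0.05 and 1 called by DESeq2. Without a filter on low counts edgeR called 2 higher (SOX2 and TDGF1) and 1 lower (DPPA4) in 3-D. The label "naïve" was not borne out by every marker, since 3 of 8 naïve markers (DPPA5, KHDC1L and ARGFX) lay under 1 CPM in all libraries and KLF17 between 0.465 and 1.07 CPM. TFCP2L1 lay between 22.1 and 23.8 CPM, DNMT3L between 14.6 and 17.9, KLF4 between 9.26 and 10.4 and DPPA3 between 5.75 and 7.43. Of the 6 naïve markers tested 0 were called by edgeR, with 3 higher and 3 lower, and DESeq2 also called 0. The 8 primed markers ranged from DUSP6 at 1.86 to 3.29 CPM up to CD24 at 868 to 906 CPM. Among the 8, 3 were called (37.5%, against 7.9% of all genes), all higher in 3-D. They were SFRP2, THY1 and SALL2, with log2 fold changes of 0.28, 0.22 and 0.21. The same 3 were called higher under each alternative that kept all 4 libraries. Of 10 trophoblast markers, 6 lay under 1 CPM throughout, GATA3, CDX2, ELF5 and CGA among these, and TFAP2C lay between 92.6 and 96.7 CPM. None of the 7 tested passed in the main edgeR test or in DESeq2, with 1 at an unadjusted p below 0.05 in edgeR (HAND1, log2 fold change 0.98, between 0.61 and 0.681 CPM in 2-D and 1.27 and 1.28 CPM in 3-D). HAND1 was called higher in edgeR with no filter on low counts and with at least 10 counts in every library. It also stood in a list of mesoderm markers, of which 5 were tested and 0 passed in the main edgeR test (4 higher, 1 lower). Of these, 3 had an unadjusted p below 0.05 in edgeR, all higher (HAND1, TBXT and KDR). Of 4 tested endoderm markers 0 passed, with 1 at such a p (GATA6, log2 fold change 1.0007 and adjusted p = 0.0516 in edgeR). GATA6 was called higher in edgeR with no filter on low counts. Of 4 tested neural ectoderm markers 0 passed and 0 had such a p. Fibroblast markers gave a summed level of 472 and 464 CPM in 2-D against 475 and 519 CPM in 3-D. Of these, COL1A1, COL3A1 and POSTN were called higher (log2 fold changes of 0.29, 0.73 and 0.65). That is 3 of 8 tested (37.5%, against 7.9% of all genes), and DESeq2 called COL1A1 and COL3A1 but not POSTN. COL1A2 lay between 301 and 325 CPM and was the 1 tested marker with a negative log2 fold change (-0.037). PDGFRB lay between 7.15 and 9.15 CPM, and TWIST1 between 4.82 and 6.23. The 3 markers under 1 CPM in every library were DCN, LUM and FAP, with LUM at 3 and 10 counts in 2-D and 5 and 17 in 3-D. Some markers have near-identical copies, 6 on alternate contigs for POU5F1 and 1 on a chromosome for each of TDGF1, DPPA3 and CD24. The CPM of these genes may be part of their reads.

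Transcripts of most of the 10 genes were nearly level between flat and scaffold culture. Only AMOTL2, which encodes an angiomotin-like protein that binds YAP, passed the test, at 9.91% higher in 3-D. YAP1 differed by -5.28% and TEAD4 by 7.26%, neither passing, and the classic YAP targets CCN1 and CCN2 differed by about 1% or less. The scarce target ANKRD1 was 28.8% higher in 3-D without passing. Its 95% interval, from -7.18% to 78.8%, left its change unresolved. The test was the quasi-likelihood test of edgeR on the counts, with p-values adjusted over all 22555 genes by the Benjamini-Hochberg method and a threshold of 0.05. By this test 1 of the 10 genes (10%) was called, against a background of 7.9% of all genes, so the share was near the background. In the upward direction alone, 1 of 10 stood against 4.54% of all genes, and downward 0 of 10 stood against 3.36%. Both libraries of a condition lay above both of the other for 5 of the 10, against 50.5% of all tested genes, and 3 of 10 (AMOTL2, YAP1 and TEAD4) had an unadjusted p below 0.05, against 21.3%. Over the 10 genes the median log2 fold change of 3-D over 2-D was -0.013, with 4 higher and 6 lower, beside a median of -0.00014 over all tested genes. With 2 libraries a condition, the p-values rest on the spread between a pair of cultures in each condition. The fit moderates the spread of each gene with that of all tested genes.

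**Figure D1:**
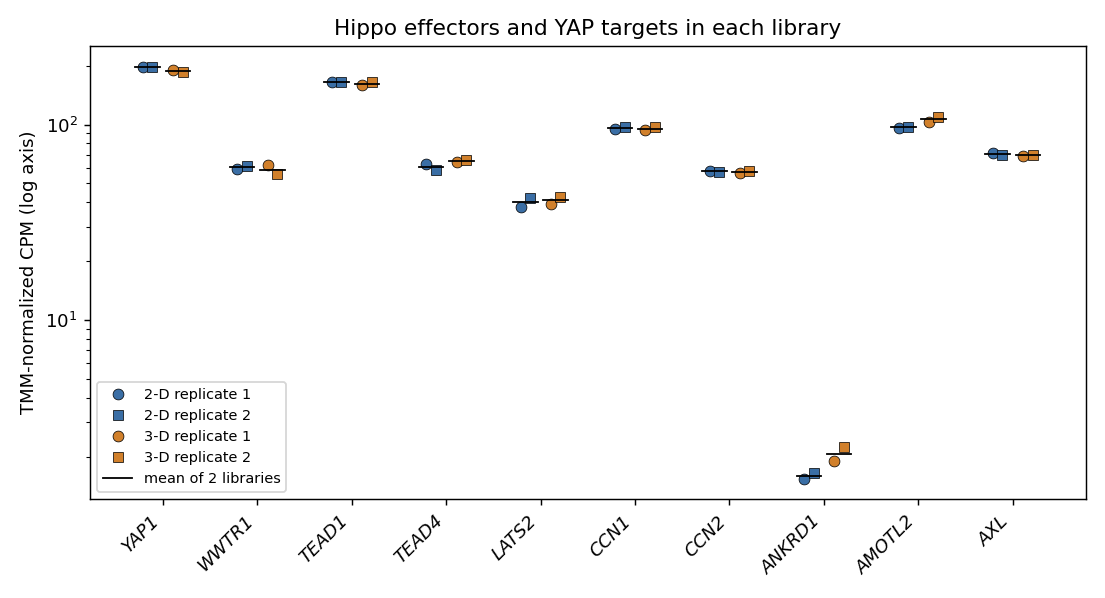
Level of each of the 10 genes in each library, in CPM after TMM scaling on a log axis, with 2-D libraries in blue, 3-D libraries in orange and a bar at the mean of 2 libraries. ANKRD1 stands below 3 CPM in every library while the other 9 lie above 38 CPM, and the 2-D and 3-D points of most genes lie at nearly the same height.

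YAP1, on chromosome 11 (chr11:102110447-102233424 in GRCh38, plus strand), encodes the principal transcriptional coactivator under Hippo control. Its level was 197 and 198 CPM in 2-D and 189 and 185 CPM in 3-D. The groups did not overlap, with both scaffold libraries lower. The log2 fold change was -0.078 (SE 0.030), a difference of -5.28% with a 95% interval from -9.46% to -0.912%, and the adjusted p of the edgeR test was 0.147. It passed the test, as lower in 3-D, under 2 of the 13 alternatives, when scaled by library size only (-0.14, adjusted p = 0.0101 in edgeR) and without the first 3-D library (-0.097, adjusted p = 0.0299 in edgeR). Antisense genes cover up to 9.95% of the YAP1 exons, and the more abundant of these had 1454 and 1243 counts in 2-D and 796 and 709 in 3-D, against 3316 to 6793 counts for YAP1. Whether the counting separated strands is not given in the sources used here.

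WWTR1 (chr3:149517235-149736714, minus strand) encodes TAZ, the paralog of YAP. It stood at 59.4 and 61.5 CPM in 2-D and at 61.8 and 55.7 CPM in 3-D. The 3-D libraries held both the highest and the lowest of these 4 values, so the groups overlapped. The log2 fold change was -0.039 (SE 0.050), with an interval from -9.68% to 4.91%, and edgeR gave an adjusted p of 0.731. WWTR1-AS1 on the other strand covers 9.05% of the WWTR1 exons and had 234 and 214 counts in 2-D and 176 and 150 in 3-D, with a log2 fold change of 0.30 (adjusted p = 0.118 in edgeR). As a share of the summed YAP1 and WWTR1 counts per kilobase of exon, YAP1 made up 81.2% ± 0.341 in 2-D and 80.8% ± 0.874 in 3-D (SD, n = 2 each; exact permutation test, two-sided, p = 0.667). With 2 libraries against 2, such a test cannot go below 0.333, so no share tested here could reach the threshold. The difference in the YAP1 share, -0.388 percentage points, became 0.231 points when the first 3-D library was left out.

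TEAD1 and TEAD4 encode TEAD factors, which give YAP and TAZ their contact with DNA. TEAD1 (chr11:12674421-12944737, plus strand) was at 165 CPM in both 2-D libraries and at 159 and 165 CPM in 3-D. Its groups overlapped, and the log2 fold change was -0.024 (SE 0.031 and adjusted p = 0.731 in edgeR). TEAD4 (chr12:2959330-3040676, plus strand), the family member best known from the trophectoderm of the early embryo, was at 62.5 and 58.5 CPM in 2-D and at 64.3 and 65.5 CPM in 3-D. Both 3-D libraries were above both 2-D libraries. Its log2 fold change was 0.10 (SE 0.043), or 7.26% with an interval from 0.555% to 14.4%, and edgeR gave an adjusted p of 0.192. It did not pass under any of the 13 alternatives, with fold changes from 0.037 to 0.15 on the log2 scale. Neither gene overlaps another annotated gene on its exons.

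The remaining paralogs completed the TEAD family. TEAD2 (chr19:49340595-49362457, minus strand), the family member with the most counts per kilobase, stood at 119 CPM in both 2-D libraries and at 136 and 135 CPM in 3-D. It rose by 14.0%, with an interval from 9.16% to 19.1% (log2 fold change 0.19, SE 0.029 and adjusted p = 0.0017 in edgeR), and passed under all 13 alternatives. CD37, a gene on the other strand, covers 10.7% of the TEAD2 exons and had 1097 and 905 counts in 2-D and 658 and 447 in 3-D, with a log2 fold change of -0.10. TEAD3 did not pass, at 22.3 and 21.8 CPM in 2-D and 21.8 and 21.0 CPM in 3-D (log2 fold change -0.043 and adjusted p = 0.795 in edgeR).

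Per kilobase of exon, TEAD2 made up 44.8% ± 0.696 of the counts of the family in 2-D and 47.3% ± 0.492 in 3-D (SD, n = 2 each). TEAD1 made up 17.3% ± 0.257 and 15.8% ± 0.397, and TEAD3 8.12% ± 0.0136 and 7.30% ± 0.225. The 2-D and 3-D libraries did not overlap for these 3 shares, for each of which the exact permutation test (two-sided) gave its smallest possible p, 0.333. The TEAD4 share was 29.8% ± 0.939 in 2-D and 29.7% ± 0.319 in 3-D, and its libraries overlapped (exact permutation p = 1). TEAD2 and TEAD4 thus held most of the family in each library, and TEAD1, the leader by undivided counts at 45.02% in 2-D and 42.2% in 3-D, ranked below both once its longer exons were allowed for.

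**Figure D2:**
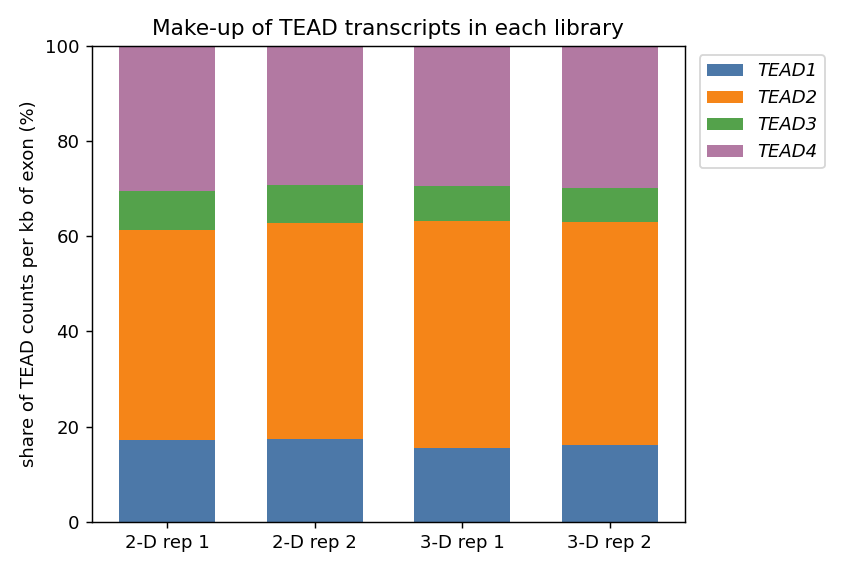
Share of each TEAD gene in the summed TEAD counts per kilobase of exon, in percent, for each of the 4 libraries as a stacked bar from 0 to 100. TEAD2 is the widest band, at 44.3% and 45.3% in 2-D and 47.6% and 46.9% in 3-D, and TEAD1 and TEAD3 are narrower in both 3-D bars.

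LATS2 (chr13:20973036-21061586, minus strand) encodes a kinase that phosphorylates YAP and TAZ and is itself known as a YAP target in negative feedback. It was at 38.1 and 42.3 CPM in 2-D and at 39.4 and 42.6 CPM in 3-D. The replicates of each condition differed by more than the conditions did. The log2 fold change was 0.027 (SE 0.065), with an interval from -7.57% to 12.3% and an adjusted p of 0.869 in edgeR, and its sign turned under 5 of the 13 alternatives. LATS1, the paralogous kinase, was at 58.9 and 60.9 CPM in 2-D and 55.5 and 60.3 CPM in 3-D (log2 fold change -0.050 and adjusted p = 0.613 in edgeR). Per kilobase, LATS2 made up 50.4% ± 1.28 of the pair in 2-D and 51.7% ± 0.0953 in 3-D (SD, n = 2 each), so both kinases were present at about the same level.

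CCN1 and CCN2 encode secreted matricellular proteins, formerly named CYR61 and CTGF, and are the readouts most used for YAP activity. CCN1 (chr1:85580761-85584589, plus strand) was at 95.3 and 96.8 CPM in 2-D and at 94.2 and 96.7 CPM in 3-D. CCN2 (chr6:131948176-131951372, minus strand), whose window above held 3 TEAD letter runs, was at 58.1 and 57.3 CPM in 2-D and at 56.6 and 57.7 CPM in 3-D. For both genes the conditions overlapped. The log2 fold change of CCN1 was -0.010 (SE 0.033 and adjusted p = 0.905 in edgeR), and its interval ran from -5.48% to 4.33%. That of CCN2 was -0.015 (SE 0.041 and adjusted p = 0.885 in edgeR), with an interval from -6.93% to 5.23%. These intervals, which are for single genes and not widened for the number of genes, do not reach 7% for either gene in either direction. Across the alternatives the log2 fold change lay between -0.075 and 0.0079 for CCN1 and between -0.079 and -0.0013 for CCN2, and neither gene was called.

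AXL (chr19:41219223-41261766, plus strand), a receptor tyrosine kinase, was at 71.3 and 70.0 CPM in 2-D and at 69.3 and 69.8 CPM in 3-D. Both scaffold libraries were below both flat libraries, by a margin smaller than the spread within 2-D. The log2 fold change was -0.024 (SE 0.036 and adjusted p = 0.779 in edgeR). ANKRD1 (chr10:90912096-90921087, minus strand), an ankyrin repeat protein first known from heart muscle, was the scarcest of the 10, at 1.54 and 1.66 CPM in 2-D and 1.90 and 2.23 CPM in 3-D. Both 3-D libraries were above both 2-D libraries, but these levels rest on 39 to 53 counts a library, at which counting error alone gives a coefficient of variation of 13.7% to 16.0%. The log2 fold change of 0.37 (SE 0.22) had an interval from -0.11 to 0.84, and edgeR gave an adjusted p of 0.378.

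AMOTL2 (chr3:134355347-134375479, minus strand) encodes a junction-associated angiomotin that binds YAP and activates LATS2, and it is also a YAP target. It was at 95.9 and 97.7 CPM in 2-D and at 104 and 109 CPM in 3-D. Both 3-D libraries were above both 2-D libraries. AMOTL2 rose by 9.91% in 3-D, with an interval from 4.32% to 15.8% (log2 fold change 0.14, SE 0.035; unadjusted p = 0.00191, adjusted p = 0.0309 in edgeR). The direction held under all 13 alternatives, with log2 fold changes from 0.068 to 0.17, but the call was lost under 8 of them. In DESeq2 the adjusted p was 0.209, and in the newer default mode of edgeR it was 0.0572. An allowance for exon length and GC content lowered the log2 fold change to 0.068 (adjusted p = 0.256 in edgeR), and library size as the only scaling lowered it to 0.072 (adjusted p = 0.266 in edgeR). Leaving out the first 2-D library gave an edgeR adjusted p of 0.266, leaving out the second gave 0.143, and leaving out the second 3-D library gave 0.0958 with a log2 fold change of 0.098. The ribosomal protein pseudogene RPL39P5 lies on 2.89% of the AMOTL2 exons and had at most 10 counts in a library.

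Of the other angiomotins neither passed. AMOTL1 was at 90.5 and 92.8 CPM in 2-D and at 94.8 and 97.6 CPM in 3-D, with a log2 fold change of 0.069 (SE 0.034 and adjusted p = 0.264 in edgeR). AMOT was at 7.87 and 7.43 CPM in 2-D and at 7.88 and 7.98 CPM in 3-D (log2 fold change 0.050 and adjusted p = 0.85 in edgeR, and -0.014 with library size only). The interval of AMOT, from -0.18 to 0.28 on the log2 scale, holds the value of AMOTL2, and differences between the 3 genes were not tested. Per kilobase, AMOTL2 made up 59.8% ± 0.0143 of the angiomotin counts in 2-D and 60.9% ± 0.413 in 3-D (SD, n = 2 each; exact permutation p = 0.333, the smallest it can give).

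**Figure D3:**
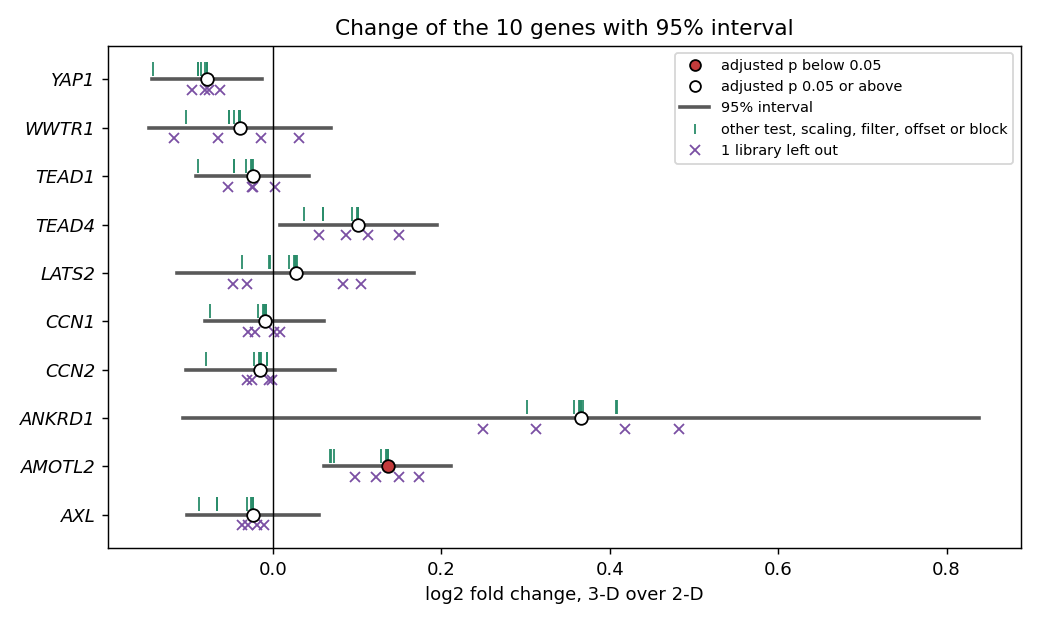
Log2 fold change of 3-D over 2-D for each of the 10 genes (circle, filled where the adjusted p is below 0.05) with its 95% interval as a grey line. Green ticks give the value under another test, scaling, filter, offset or block and purple crosses the value with 1 library left out; AMOTL2 is the only filled circle, ANKRD1 has the widest interval, from -0.11 to 0.84, and the marks of LATS2 fall on both sides of 0.

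Levels of different genes were compared as CPM per kilobase of exon, averaged over the 4 libraries. YAP1 led the 10 at 30.5, followed by TEAD4 at 27.6, CCN1 at 25.9 and CCN2 at 24.6. AMOTL2 at 15.7, TEAD1 at 15.3 and AXL at 13.7 formed the middle, and LATS2 at 7.23, WWTR1 at 7.14 and ANKRD1 at 1.02 were lowest. Over the 4 libraries the ranges of TEAD4 and CCN1 overlapped, as did those of AMOTL2 and TEAD1 and those of LATS2 and WWTR1, so these neighbours were not separated. TEAD2, at 42.7, was above all 10. The targets CCN1, CCN2, AMOTL2 and AXL thus lay within the range of TEAD1 and TEAD4 or close to it, and ANKRD1 lay far below.

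Among 63 further genes of the pathway, in 6 lists, 58 were tested and 7 passed (12.1%, against 7.9% of all genes), 5 higher and 2 lower in 3-D, with a median log2 fold change of 0.016. DESeq2 called 3 of them, and the count was 2 without the first and 1 without the second 2-D library. With library size as the only scaling the split was 2 higher and 8 lower. Of 10 core kinases and adaptors only MAP4K4, a kinase that can activate LATS in parallel to MST, passed. It rose from 509 and 498 CPM in 2-D to 557 and 545 CPM in 3-D (log2 fold change 0.13 and adjusted p = 0.0199 in edgeR). It was lost without either 2-D library, with library size only and with the length and GC allowance. Of 15 tested upstream and membrane regulators the protocadherin DCHS1 passed, at 44.95 and 43.9 CPM in 2-D and 49.5 and 50.6 CPM in 3-D (log2 fold change 0.17 and adjusted p = 0.0465 in edgeR), and 8 of 13 alternatives lost it. Antisense genes cover up to 7.6% of the DCHS1 exons. Among these, DCHS1-AS1 had 118 and 104 counts in 2-D and 110 and 86 in 3-D. It was itself called higher (log2 fold change 0.58 and adjusted p = 0.0296 in edgeR), while ENSG00000255410 had a log2 fold change of -0.17. FAT1, a relative of DCHS1 and the most abundant of the list, was at 786 and 784 CPM in 2-D and 835 and 836 CPM in 3-D without passing (adjusted p = 0.0845 in edgeR).

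Of 7 inhibitors of the core kinases, LIMD1, a LIM protein that binds LATS, fell from 102 and 103 CPM in 2-D to 92.3 and 92.6 CPM in 3-D (log2 fold change -0.15 and adjusted p = 0.0132 in edgeR). The call was lost with DESeq2 and without either 2-D library. LIMD1-AS1 on the other strand covers 24.85% of the LIMD1 exons. It had 1909 and 1714 counts in 2-D and 1079 and 986 in 3-D, with a log2 fold change of -0.048. STRN, the scaffold subunit of the phosphatase complex that acts on MST and the gene of that list with the highest CPM, had a log2 fold change of -0.027. Of 9 genes for retention and degradation of YAP and TAZ, the 14-3-3 genes YWHAE and YWHAH passed. YWHAE had a log2 fold change of 0.32 (adjusted p = 0.0131 in edgeR; call lost without the second 2-D library), but a near-identical copy is annotated on an alternate contig, so its 27.0 to 36.1 CPM may be part of its reads. YWHAH had a log2 fold change of 0.11 (adjusted p = 0.0491 in edgeR) and was lost under 8 of 13 alternatives. YWHAZ, the 14-3-3 gene with the highest CPM, though not per kilobase of exon, was at 935 and 943 CPM in 2-D. It was at 983 and 999.5 CPM in 3-D (log2 fold change 0.078 and adjusted p = 0.144 in edgeR). Of the TEAD cofactors, VGLL1 had 0 counts in all libraries, which allows up to 3 counts in each (0.0887 to 0.164 CPM on library totals without TMM scaling). VGLL2 had at most 2 counts, and VGLL3 and VGLL4 did not pass.

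Of 16 further YAP targets 14 were tested. NUAK2, a kinase, was the 1 that passed and it fell, from 29.2 and 28.4 CPM in 2-D to 23.7 and 25.2 CPM in 3-D (log2 fold change -0.24 and adjusted p = 0.0478 in edgeR). DESeq2 and the loss of either 2-D library or of the first 3-D library ended that call. PTPN14, the target of the list with the highest CPM and itself a binder of YAP, had a log2 fold change of -0.025. Of the 14, 10 had a positive log2 fold change (8 with library size only), and the median log2 fold change was 0.083. The 1 call in 14 is 7.14%, beside 7.9% of all genes.

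**Figure D4:**
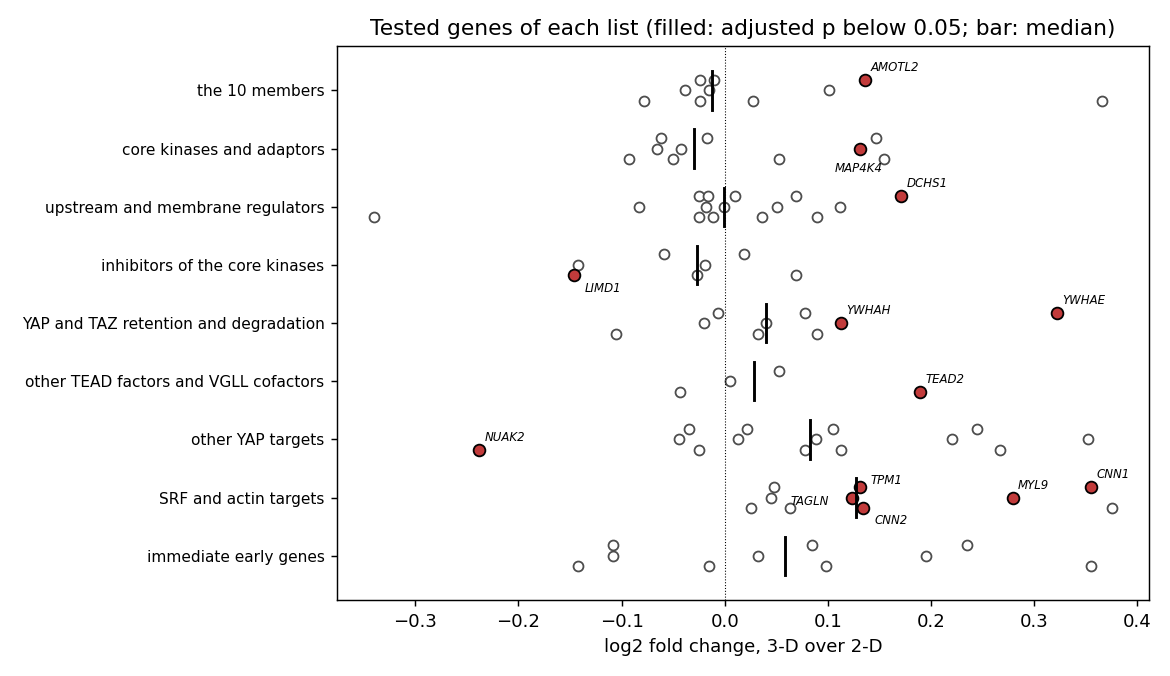
Log2 fold change of 3-D over 2-D for every tested gene of the 10 and of 8 further lists, with 1 circle a gene, filled where the adjusted p is below 0.05, and a bar at the median of the list. Filled circles are named; the SRF and actin targets hold 5 of them, all to the right of 0, and the other lists hold at most 2.

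Many YAP targets share control with serum response factor (SRF), which acts through actin and its MRTF coactivators. An SRF and actin list was chosen with earlier results of these data known, so its share of calls is a description only. All 10 of its genes were higher in 3-D in the fitted model (7 with the length and GC allowance, and 6 when scaled by library size only). The median log2 fold change was 0.13, and 5 passed (50%, against 7.9% of all genes). The count was 5 in DESeq2 also, and 2 with the length and GC allowance, with library size only, or without either of the 2-D libraries. MYL9, a myosin regulatory light chain, rose from 123 and 118 CPM to 144 and 147 CPM (log2 fold change 0.28 and adjusted p = 2.33e-04 in edgeR). CNN1, a smooth muscle calponin, rose from 22.2 and 21.8 CPM to 27.1 and 29.2 CPM (log2 fold change 0.36 and adjusted p = 0.0073 in edgeR). Both passed under all 13 alternatives. CNN2, TPM1 and TAGLN rose by 0.13, 0.13 and 0.12 on the log2 scale (adjusted p = 0.0147, 0.0193 and 0.0226 in edgeR), and each was lost under 4 or 5 alternatives, the loss of either 2-D library included. PCSK7 on the other strand covers 34.1% of the TAGLN exons and was itself called higher (log2 fold change 0.22 and adjusted p = 0.00205 in edgeR). An antisense gene of CNN2 was also called higher (0.26 and adjusted p = 0.00249 in edgeR). On the strand of TAGLN, ENSG00000280143 covers 38.1% of its exons. This gene had 147 and 143 counts in 2-D and 102 and 72 in 3-D (log2 fold change 0.019). Antisense genes cover up to 17.99% of the TPM1 exons, with log2 fold changes of 0.024 for TPM1-AS and -0.18 for ENSG00000259627. VCL, the gene of the list with the highest CPM, had 607 and 612 CPM in 2-D and 612 and 648 CPM in 3-D (log2 fold change 0.047, and -0.017 with library size only). The fibroblast markers COL1A1, COL3A1 and POSTN and the primed markers SFRP2, THY1 and SALL2 were called higher in the same libraries. Of 8 tested fibroblast markers 7 were higher and 1 lower (COL1A2, log2 fold change -0.037). Of 8 primed markers 6 were higher and 2 lower (CD24 and OTX2, -0.024 and -0.016). The part of fibroblast or primed cells in the values of the SRF and actin list was not tested. In bulk RNA, a change in how many cells express a gene and a change in RNA per cell cannot be told apart.

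Immediate early genes, which respond to growth factors and handling within minutes, gave 0 calls of 10 in edgeR and 0 in DESeq2, with 2 at an unadjusted p below 0.05 in edgeR and a median log2 fold change of 0.058. IER2, the most abundant, was at 53.7 and 54.5 CPM in 2-D and 50.8 and 49.5 CPM in 3-D (log2 fold change -0.11 and adjusted p = 0.174 in edgeR). Antisense genes cover up to 30.7% of the IER2 exons. Of these, ENSG00000267598 had 893 and 785 counts in 2-D and 553 and 505 in 3-D (log2 fold change 0.099). The other, ENSG00000287296, had a log2 fold change of -0.70. IER2 was called, as lower, under 2 of the 13 alternatives. Under 3 others 1 gene of the list was called higher, and this was EGR1, which is named after its values were seen and had a log2 fold change of 0.36 (adjusted p = 0.146 in edgeR) in the main test.

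The protein-coding genes whose centred log2 CPM lay nearest to that of AMOTL2 over the 4 libraries, among 3351 of like abundance, were RPRD2 and TOMM40. RPRD2 was at 78.6 and 80.4 CPM in 2-D and 85.5 and 89.3 CPM in 3-D, at a Euclidean distance of 0.00988. TOMM40 was at 116 and 118 CPM in 2-D and 124 and 131 CPM in 3-D, at a distance of 0.0141. Over 4 libraries this likeness is a description only.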

How the data were processed

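RNA-seq was performed on 2 libraries of 2-D and 2 of 3-D grown Elf1 cells, prepared after ribosomal RNA depletion. Per the submitters' processing notes and the study's methods, the authors trimmed reads with Trim Galore 0.6.3, mapped them to hg38 with HISAT2 2.1.0 and counted them per GENCODE gene with featureCounts 1.6.4, and the deposited values used here are these raw counts per gene. The strand setting and the treatment of reads with several positions are not given in the sources used here. The authors' matrix normalized by DESeq2 2.11.40.6, with their own comparison, was not used.

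Genes were tested with edgeR 4.0.16 (R 4.3.3), using filterByExpr, TMM scaling and the legacy quasi-likelihood fit, as 3-D against 2-D without a block. P-values were adjusted by the Benjamini-Hochberg method over all 22555 genes. CPM are TMM-scaled. The common biological coefficient of variation was 5.10%. Of 60564 identifiers 60295 matched GENCODE release 44, which gave symbols, exon lengths and positions. The fit was run on simulated data with changes larger than those of most of the 10 genes, in genes with more counts than ANKRD1. That run cannot show how well changes of a few percent are called. Alternatives were DESeq2 1.42.0 and its size factors, edgeR without the legacy mode, library size only, no filter or at least 10 counts in each library, offsets for length and GC content, a replicate block, and leaving out each library. Near-identical copies were sought with minimap2 2.31-r1302 (at least 80% of a transcript aligned at 98% identity), and none of the 10 genes had one. Same-numbered libraries did not deviate together (correlation -0.0079), so replicate numbers were not treated as pairs.

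The 10 genes and all lists were chosen with earlier results of these data known. The text names the 10 genes, their paralogs, and of each further list the called genes (at most 6) and the one with the highest mean CPM. That CPM is not divided by exon length. Genes with the nearest pattern are given for the called member. Promoter sequences are from RefSeq (GRCh38.p14). Intervals are at 95%.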

Additional observations from a re-analysis of the deposited data

How the results depend on the processing

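With 2 libraries a condition, 1 library can decide a call, and changes of a few percent lie near the limit of these data. Of all 22555 tested genes 1782 were called (1024 higher, 758 lower); DESeq2 called 795, leaving out 1 library gave 792 to 2390, and library size only gave 2393 (514 higher, 1879 lower). Offsets for length and GC content gave 1481 (742 higher, 739 lower), and no filter gave 2486. Of the 10 genes, 1 was called by the main test, 0 by DESeq2, 0 by edgeR without the legacy mode, 0 with the offsets, 0 with the offsets and a replicate block, and 0 to 2 with 1 library left out (2 without the first 3-D library, where YAP1 joined AMOTL2). Of the 58 further pathway genes 7 were called, 3 by DESeq2 and 1 to 9 with 1 library left out. A replicate block gave 2167 calls over all genes, 1 of the 10 and 8 of the 58; the numbers are not known to pair cultures, and with 2 pairs the block could not be checked further. Without division by exon length the TEAD1 share differed by -2.79 and the TEAD3 share by -0.449 percentage points, against -1.54 and -0.821. The log2 fold change of LATS2 turned to -0.0031 with the offsets and a replicate block, to -0.0046 with the offsets and to -0.037 with library size only; AMOT turned to -0.014 and VCL to -0.017 with library size only. With 1 library left out, it ranged from -0.048 to 0.10 for LATS2, from -0.12 to 0.031 for WWTR1, from -0.053 to 0.0025 for TEAD1, from -0.030 to 0.0079 for CCN1 and from -0.11 to 0.0093 for LATS1. Of these, none was called under any alternative except VCL, which was called without the first 3-D library. Of 130 values for the 10 genes under an alternative, 111 kept direction and call, 8 lost a call, 2 gained one and 9 changed sign. The causes of these differences were not tested.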
